A study of Mus musculus with 12 samples.

Results

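The genes that cut, carry and load peptides for MHC class I were measured in 12 mouse glioblastoma masses. 10 genes were named for this pathway: Tap1, Tap2, Tapbp, Psmb8, Psmb9, Psmb10, B2m, H2-T23, H2-K1 and H2-D1. A gene counted as measured where the array's annotation gave its symbol alone for a probe set, and the brightest on average over the 12 arrays was used where there were several. 9 of the 10 genes were measured by this rule, among 22180 genes in all. H2-D1 was not, since its probe set also names H2-Q2. Among the measured genes, 0 of 9 passed the test in any comparison of treated with Control masses. Few of all genes passed either, from 0% in Combination to 0.888% with the treated groups averaged. The group mean of each of the 9 was nonetheless lower with every treatment than in Control.

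Class I molecules show short peptides from inside the cell to CD8 T cells. The proteasome cuts proteins into peptides, the TAP transporter moves these into the endoplasmic reticulum, and tapasin holds an empty heavy chain with beta-2 microglobulin beside TAP until a peptide binds. Interferons raise most of these genes together, and tumour cells can lose this machinery, which hides them from CD8 T cells.

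GL261 is a mouse glioblastoma line that grows in immunocompetent C57BL/6 brain. In every group it was implanted orthotopically in male C57BL/6 mice aged 8 weeks, and total RNA came from the tumour mass taken on day 16. Combination mice were given temozolomide (TMZ) and the antibody against PD-1. TMZ mice were given TMZ alone, a DNA-alkylating drug, at 30 mg/kg into the peritoneum. Anti-PD-1 mice were given the antibody alone, which blocks an inhibitory receptor of T cells, at 10 mg/kg into a vein with 2 injections per week. The labels give one protocol for each agent, name no drug for Control, and state neither the dosing days nor whether each array was a separate animal. Each group had 3 arrays, so p values measure only the spread between these arrays, which may be technical. All masses came from 1 cell line.

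The values are log2 signals from RMA, a method that corrects background, normalises arrays to one another and summarises the probes of a probe set, so a difference of 1 is 2-fold in signal. Array medians lay between 5.062 and 5.12, and arrays correlated with one another at r = 0.984 to 0.991 over the 41345 probe sets. Neuron markers were bright, with a mean log2 level of 10.1 over 15 genes, so the masses held brain RNA beside that of the tumour. Controls 1 and 2 stood apart from the other 10 arrays in the class I genes, and Control replicate 3 did not. In such bulk RNA, fewer cells of a type and less RNA per cell cannot be told apart. Arrays have no read depth, and the number of arrays limits the precision.

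The start sites of several of these genes are shown because the genes varied together over the arrays. The sequences are RefSeq windows on GRCm38.p6, reaching 250 bases before and 50 after the start site, and 9 of the 10 genes had one. Capitals mark matches on either strand. The motifs were the interferon-stimulated response element core GAAANNGAA and a variant with an A moved from the first repeat to the second, GAANNGAAA. The gamma-activated site TTCNNNGAA, the kappa B site GGGANTNCC and the inverted CCAAT box ATTGG were marked too. Each sequence runs 5′ to 3′ on the strand of its gene, and positions are counted from the start site. Tap1 and Psmb9 are transcribed away from each other, on opposite strands, from start sites 226 bases apart, and their windows share 275 of 300 bases.
Tap1 (chr17:34187306-34187605, + strand): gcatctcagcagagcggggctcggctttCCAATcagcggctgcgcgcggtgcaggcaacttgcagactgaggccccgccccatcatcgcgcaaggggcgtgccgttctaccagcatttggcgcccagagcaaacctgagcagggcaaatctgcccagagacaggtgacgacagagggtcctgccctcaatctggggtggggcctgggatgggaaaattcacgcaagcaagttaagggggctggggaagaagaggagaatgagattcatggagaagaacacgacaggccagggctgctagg
Psmb8 (chr17:34197945-34198244, + strand): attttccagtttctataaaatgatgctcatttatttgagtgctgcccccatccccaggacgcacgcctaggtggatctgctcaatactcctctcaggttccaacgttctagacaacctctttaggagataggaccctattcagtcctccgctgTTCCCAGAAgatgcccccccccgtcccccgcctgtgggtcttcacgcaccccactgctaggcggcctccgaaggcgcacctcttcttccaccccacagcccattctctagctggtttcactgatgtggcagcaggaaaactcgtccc
B2m (chr2:122147437-122147736, + strand): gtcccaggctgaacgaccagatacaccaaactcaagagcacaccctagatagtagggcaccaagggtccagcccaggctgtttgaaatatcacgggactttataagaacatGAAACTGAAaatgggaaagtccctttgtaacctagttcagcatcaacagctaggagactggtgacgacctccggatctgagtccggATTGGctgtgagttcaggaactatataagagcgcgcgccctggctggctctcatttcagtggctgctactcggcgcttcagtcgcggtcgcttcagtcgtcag
H2-K1 (chr17:34000298-34000597, - strand): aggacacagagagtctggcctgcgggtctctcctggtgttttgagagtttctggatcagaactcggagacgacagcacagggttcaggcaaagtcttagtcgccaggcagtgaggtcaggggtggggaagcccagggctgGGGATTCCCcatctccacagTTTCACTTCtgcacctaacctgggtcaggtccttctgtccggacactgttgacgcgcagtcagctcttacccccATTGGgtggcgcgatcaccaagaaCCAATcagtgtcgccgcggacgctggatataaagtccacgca
H2-T23 (chr17:36032652-36032951, - strand): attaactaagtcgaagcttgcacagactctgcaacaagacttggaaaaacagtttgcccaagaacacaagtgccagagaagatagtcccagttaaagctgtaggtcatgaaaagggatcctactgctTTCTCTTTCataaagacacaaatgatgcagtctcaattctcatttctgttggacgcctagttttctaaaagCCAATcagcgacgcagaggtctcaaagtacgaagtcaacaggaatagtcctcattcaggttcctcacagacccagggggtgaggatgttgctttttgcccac
The CCAAT box of the Tap1 window, at position -222, is also the one at position -8 of Psmb9. Matches to GAAANNGAA began at position -139 in B2m and -123 in H2-T23, 2 of the 9 genes with a window. Over all 32851 windows, 8.56% held that motif. H2-K1 and H2-D1 each held a kappa B match, at -110 and -170, with GAANNGAAA nearer the start site, at -90 and -150. These 2 motifs occurred in 3.95% and 7.52% of all windows. The variant GAANNGAAA was added to the search after these windows were seen. Psmb8 alone of the 9 held TTCNNNGAA, at -97, a motif in 8.3% of windows. The CCAAT box stood in 7 of the 9 and in 37.4% of all windows. TGACGT, searched for as the X2 box of class I promoters, stood in 0 of the 9 and 7.51% of all. Only these exact letters were searched. The H2-K1 and H2-D1 windows hold tgacgcgc and the B2m window tgacgacc, which such a search passes over. The 0 thus does not show that an X2 box is absent. A match is a run of letters and not a measured binding site.

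Of the transport and loading genes, Tap1 had the largest differences from Control. It encodes one of the paired subunits of the peptide transporter. It read 7.10, 7.14 and 7.46 in Combination masses and 7.05, 6.44 and 6.82 in TMZ masses. It read 6.25, 6.29 and 6.63 in Anti-PD-1 masses, against 7.92, 8.33 and 7.01 in Control masses. All 3 Anti-PD-1 arrays lay below all 3 Control arrays, while Control 3 fell within the TMZ range and below every Combination array. Tap1 averaged 6.39 ± 0.21 in Anti-PD-1 and 7.75 ± 0.68 in Control (SD, n = 3 each), a log2 difference of -1.36 ± 0.27 (SE; limma, adjusted p = 0.0616), or 2.57-fold lower in signal. The difference of TMZ from Control was -0.98 ± 0.27 (limma, adjusted p = 0.22) and that of Combination -0.52 ± 0.27 (limma, adjusted p = 0.497).

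Tap2, the other subunit of the transporter, had smaller differences. It read 5.78, 5.94 and 5.88 in Combination masses and 5.56, 5.57 and 5.69 in TMZ masses. It read 5.23, 5.29 and 5.57 in Anti-PD-1 masses, against 6.15, 6.35 and 5.46 in Control masses. Combination arrays lay above every TMZ and Anti-PD-1 array, with the range of Control spanning them. Differences from Control were -0.62 ± 0.18 for Anti-PD-1 (limma, adjusted p = 0.163), -0.38 ± 0.18 for TMZ (adjusted p = 0.464) and -0.12 ± 0.18 for Combination (adjusted p = 0.838).

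Tapbp encodes tapasin, which bridges the heavy chain to TAP. It read 7.54, 7.64 and 7.58 in Combination masses and 7.65, 7.41 and 7.58 in TMZ masses. It read 7.30, 7.44 and 7.48 in Anti-PD-1 masses, against 8.04, 8.29 and 7.46 in Control masses. The treated arrays stood close together, and Controls 1 and 2 lay above all 9 of them. The difference from Control was -0.53 ± 0.16 for Anti-PD-1 (limma, adjusted p = 0.186), -0.38 ± 0.16 for TMZ (adjusted p = 0.401) and -0.34 ± 0.16 for Combination (adjusted p = 0.441). A second probe set for Tapbp, with a lower mean, correlated with the one used at r = 0.428 over the 12 arrays, and gave differences of -0.15 for Combination, -0.08 for TMZ and -0.05 for Anti-PD-1. The size of the Tapbp difference and the order of the treated groups thus depended on the probe set.

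**Figure D1:**
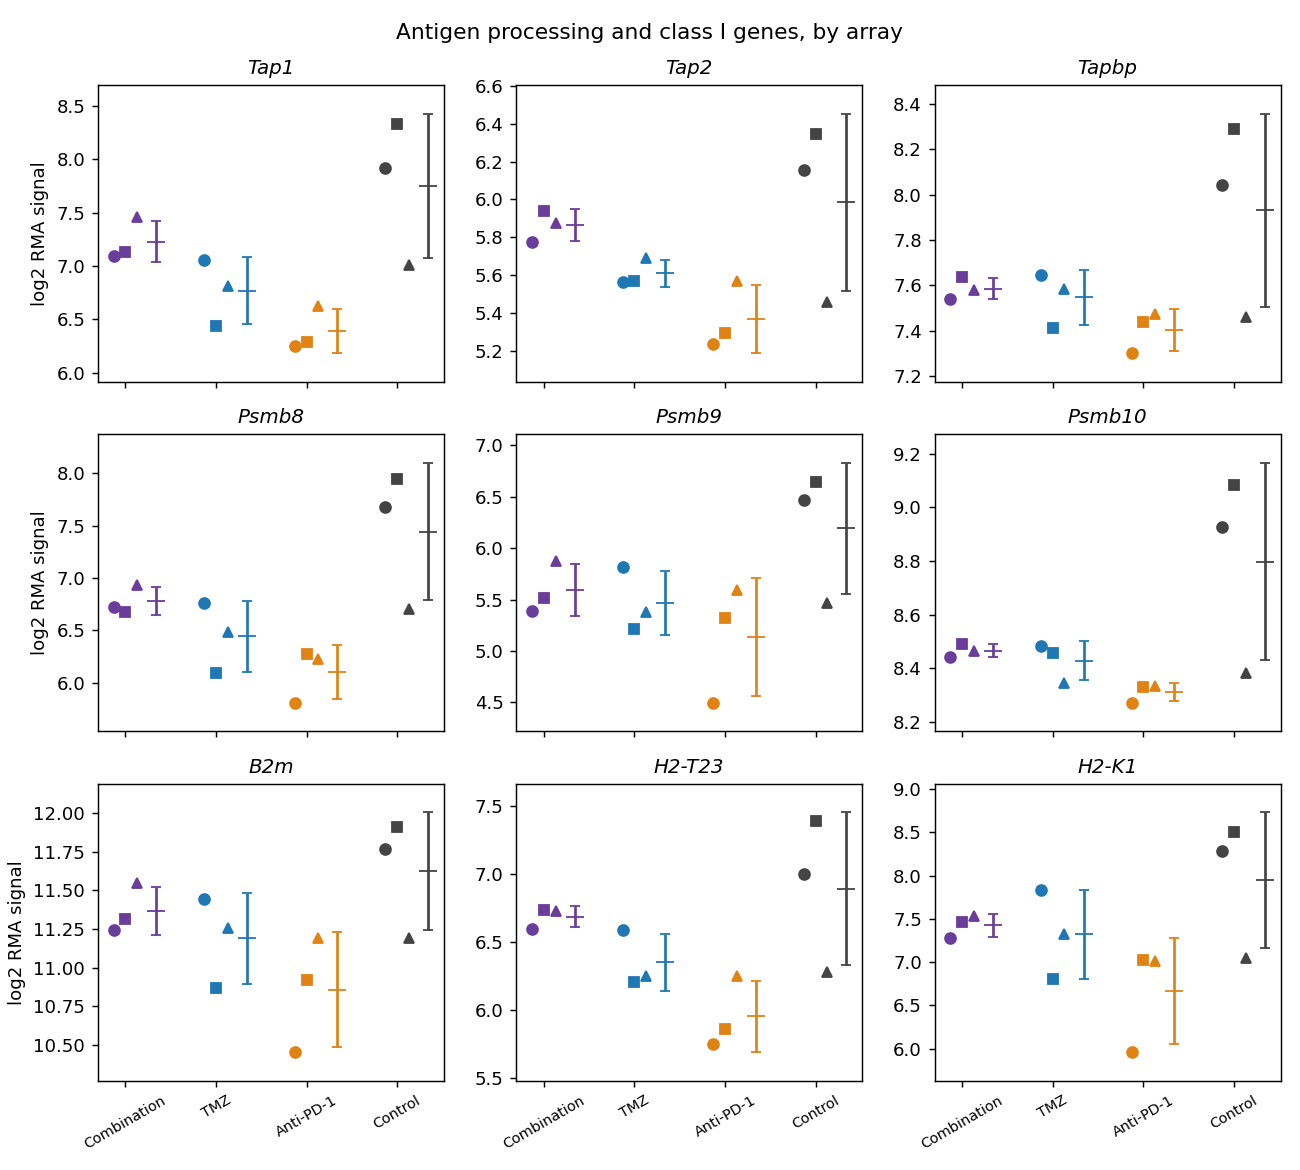
Each panel plots 1 gene, with the log2 RMA signal on the vertical axis and the 4 groups on the horizontal axis. Circles, squares and triangles are replicates 1, 2 and 3, and the bar beside them is the mean ± SD (n = 3). In all 9 panels the circle and the square of Control lie above the 9 treated arrays, and the triangle of Control lies among them.

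The immunoproteasome subunits replace the standard catalytic subunits after interferon and favour peptides that fit class I. Psmb8, which encodes the subunit that takes the place of the Psmb5 product, read 6.73, 6.68 and 6.93 in Combination masses and 6.77, 6.09 and 6.48 in TMZ masses. It read 5.81, 6.28 and 6.22 in Anti-PD-1 masses, against 7.68, 7.95 and 6.70 in Control masses. All 3 Anti-PD-1 arrays lay below all 3 Control arrays, and the lowest Control array lay within the Combination and TMZ ranges. Psmb8 averaged 6.10 ± 0.25 in Anti-PD-1 and 7.44 ± 0.66 in Control (SD, n = 3 each), a difference of -1.34 ± 0.27 (SE; limma, adjusted p = 0.063), or 2.53-fold lower. TMZ differed from Control by -0.996 ± 0.27 (adjusted p = 0.215) and Combination by -0.66 ± 0.27 (adjusted p = 0.386).

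Psmb9, which takes the place of Psmb6, read 5.39, 5.52 and 5.88 in Combination masses and 5.81, 5.22 and 5.38 in TMZ masses. It read 4.50, 5.32 and 5.60 in Anti-PD-1 masses, against 6.47, 6.64 and 5.47 in Control masses. Anti-PD-1 replicate 1 was the lowest array by a clear margin, and the groups overlapped through Control 3. The difference from Control was -1.06 ± 0.32 for Anti-PD-1 (limma, adjusted p = 0.186), -0.72 ± 0.32 for TMZ (adjusted p = 0.434) and -0.60 ± 0.32 for Combination (adjusted p = 0.507). Psmb9 and Tap1, whose promoter windows overlap, had an r of 0.908 over the 12 arrays, beside a median of 0.912 over all 36 pairs of the 9 genes.

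Psmb10, which takes the place of Psmb7, had the lowest SD of the 9 genes in Combination and in Anti-PD-1. It read 8.44, 8.49 and 8.46 in Combination masses and 8.48, 8.46 and 8.34 in TMZ masses. It read 8.27, 8.33 and 8.33 in Anti-PD-1 masses, against 8.93, 9.08 and 8.38 in Control masses. Anti-PD-1 arrays lay below every array of the 3 other groups. Set against Control, the difference was -0.49 ± 0.14 for Anti-PD-1 (limma, adjusted p = 0.152), -0.37 ± 0.14 for TMZ (adjusted p = 0.344) and -0.33 ± 0.14 for Combination (adjusted p = 0.386).

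Each immunoproteasome subunit was also set against the standard subunit it replaces, within each array. The log2 ratio of Psmb8 to Psmb5 differed from Control by -0.50 in Combination, -0.88 in TMZ and -1.20 in Anti-PD-1. Two-sided exact permutation tests of 3 against 3 arrays gave p = 0.3, 0.1 and 0.1 in that order, and 0.1 is the smallest p this design allows. For Psmb9 to Psmb6 the differences were -0.53, -0.63 and -0.97, and for Psmb10 to Psmb7 they were -0.32, -0.38 and -0.50, again in the order Combination, TMZ and Anti-PD-1. Exact p values for these 6 ranged from 0.1 to 0.3, with 0.1 reached by Psmb10 to Psmb7 in Anti-PD-1. The standard subunits themselves differed little, by -0.14 ± 0.07 for Psmb5 and -0.08 ± 0.07 for Psmb6 between the mean of the 3 treated groups and Control (limma, adjusted p = 0.405 and 0.608).

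B2m encodes beta-2 microglobulin, the light chain shared by class I molecules. It read 11.24, 11.32 and 11.54 in Combination masses and 11.44, 10.87 and 11.26 in TMZ masses. It read 10.46, 10.92 and 11.19 in Anti-PD-1 masses, against 11.77, 11.91 and 11.19 in Control masses. Anti-PD-1 replicate 3 and Control replicate 3 met at 11.19, and Controls 1 and 2 lay above all treated arrays. The difference from Control was -0.77 ± 0.22 for Anti-PD-1 (limma, adjusted p = 0.157), -0.43 ± 0.22 for TMZ (adjusted p = 0.487) and -0.25 ± 0.22 for Combination (adjusted p = 0.699).

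H2-K1 is the classical heavy chain that presents peptide at the K locus. It read 7.28, 7.47 and 7.54 in Combination masses and 7.83, 6.81 and 7.33 in TMZ masses. It read 5.96, 7.03 and 7.01 in Anti-PD-1 masses, against 8.28, 8.51 and 7.05 in Control masses. Anti-PD-1 lay below Control in every array, by the narrowest of margins between Anti-PD-1 replicate 2 and Control replicate 3. The difference from Control was -1.28 ± 0.38 for Anti-PD-1 (limma, adjusted p = 0.176), -0.63 ± 0.38 for TMZ (adjusted p = 0.58) and -0.52 ± 0.38 for Combination (adjusted p = 0.644). The class I heavy chains are a family of near-identical genes, so the H2-K1 and H2-T23 readings are uncertain as to which gene gave them.

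H2-T23 encodes Qa-1, a nonclassical heavy chain that NK cell receptors read. It read 6.60, 6.74 and 6.73 in Combination masses and 6.59, 6.21 and 6.26 in TMZ masses. It read 5.75, 5.86 and 6.25 in Anti-PD-1 masses, against 7.0004, 7.40 and 6.28 in Control masses. All Anti-PD-1 arrays lay below all Control arrays, and all Combination arrays lay above every TMZ and Anti-PD-1 array. Differences from Control were -0.94 ± 0.23 for Anti-PD-1 (limma, adjusted p = 0.102), -0.54 ± 0.23 for TMZ (adjusted p = 0.404) and -0.20 ± 0.23 for Combination (adjusted p = 0.774).

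The probe set that names H2-D1, another classical heavy chain, together with H2-Q2 did not follow the other 9. It averaged 5.70 ± 0.17 in Combination, 5.72 ± 0.16 in TMZ, 5.67 ± 0.12 in Anti-PD-1 and 5.62 ± 0.02 in Control (SD, n = 3 each). Its correlation with the mean of the 9 genes was -0.188 over the 12 arrays. What it says of H2-D1 itself is not known, since it can read either gene.

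The question of each comparison with Control was what a treatment did to this machinery. In Anti-PD-1 against Control, limma called 0 of the 9 genes at an adjusted p under 0.05, while 9 of 9 had an unadjusted p under 0.05. Of all 22180 genes, limma called 65 (0.293%), 47 of them lower, and 2993 had an unadjusted p under 0.05. The median difference of the 9 genes was -0.94, from -1.36 for Tap1 to -0.49 for Psmb10, beside a median of 0.008 over all genes. For 5 of the 9 (Tap1, Psmb8, Psmb10, H2-T23 and H2-K1) every Anti-PD-1 array lay below every Control array, which was true of 8.33% of all genes. The 9 genes were correlated with one another, so they are not 9 independent readings of the difference.

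In TMZ against Control, limma called 0 of 9, beside 22 of all genes (0.0992%). At an unadjusted p under 0.05 there were 6 of 9, beside 2496 of 22180 genes. The median was -0.54, from -0.996 for Psmb8 to -0.37 for Psmb10. In 0 of 9 did every TMZ array lie below every Control array, which held for 6.81% of all genes. In Combination against Control, limma called 0 of 9, beside 0 of all genes (0%). An unadjusted p under 0.05 was found for 2 of 9 (Psmb8 and Psmb10), beside 2576 of 22180 genes. The median was -0.34, from -0.66 for Psmb8 to -0.12 for Tap2, and 0 of 9 genes had all arrays below Control, beside 7.82% of all genes. These 3 comparisons share the same Control arrays. With the 3 treated groups averaged, limma called 0 of 9, beside 197 of all genes (0.888%), and 9 of 9 had an unadjusted p under 0.05, beside 3441 of 22180 genes. Psmb8 then differed by -0.999 ± 0.22 (adjusted p = 0.0614) and Tap1 by -0.96 ± 0.22 (adjusted p = 0.0757).

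When arrays were left out in turn, any of the 9 genes passed only without Control replicate 3. With all 12 arrays kept, some of the 9 also passed under another variance prior or with dim genes left out. Control replicate 3 lay within the range of the 9 treated arrays for all 9 genes, while Controls 1 and 2 lay above every treated array for all 9. The median SD of the genes was 0.134 in Combination, 0.294 in TMZ, 0.255 in Anti-PD-1 and 0.563 in Control. Without Control replicate 3, limma called 9 of the 9 genes in Anti-PD-1 against Control, 6 in TMZ against Control, 3 in Combination against Control and 8 for the treated mean. It then called 686, 363, 282 and 838 of all genes in the same order. Without Control replicate 2, limma called 0 of 9 in these comparisons, and the median difference of Anti-PD-1 was -0.69, against -1.24 without Control replicate 3. Anti-PD-1 replicate 1 was the lowest of the 12 arrays for all 9 genes.

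**Figure D2:**
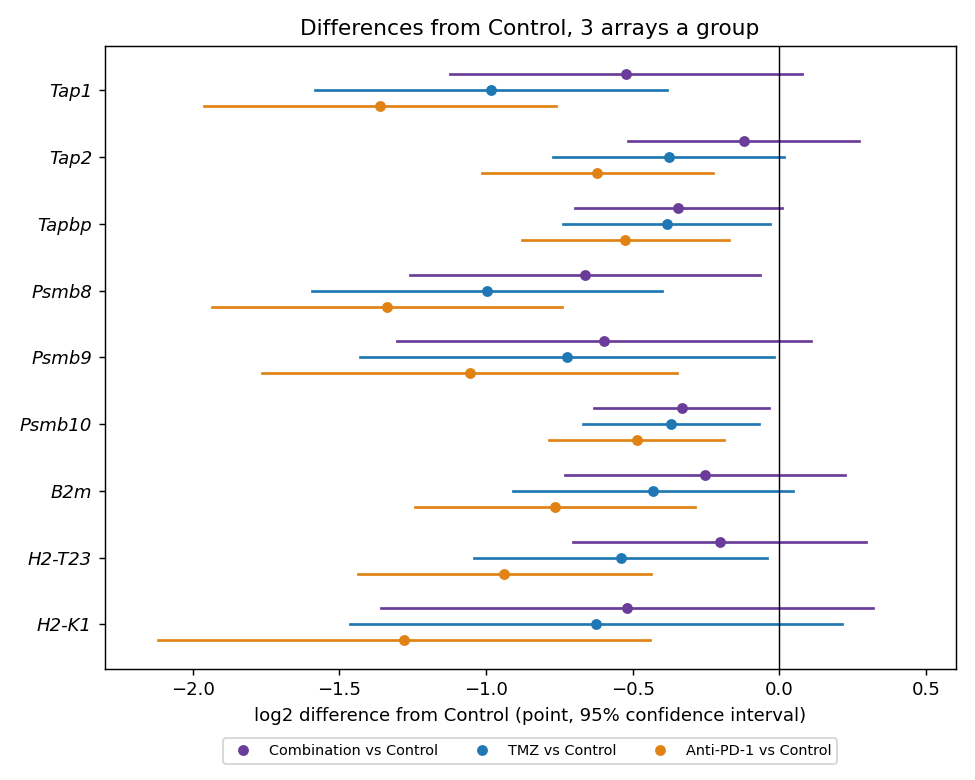
The horizontal axis is the log2 difference from Control, and each gene has 3 points with 95% confidence intervals from limma, for Combination, TMZ and Anti-PD-1 (3 arrays a group). Every point lies left of 0, with Anti-PD-1 farthest left for each gene, from -1.36 for Tap1 to -0.49 for Psmb10, and no gene passed the adjusted threshold.

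The comparisons between treatments asked whether the agents differed and whether both differed from one. From low to high, the group means ran in the order Anti-PD-1, TMZ, Combination and Control for all 9 genes. For Tapbp this held in the probe set used, while the second probe set had the treated groups in the reverse order. In Combination against Anti-PD-1 the 9 means were higher by a median of 0.51, from 0.15 for Psmb10 to 0.84 ± 0.27 for Tap1. For 8 of 9 genes, all except Psmb9, every Combination array lay above every Anti-PD-1 array, which was true of 4.87% of all genes. limma called 0 of 9 (adjusted p = 1 for each), beside 0 of all genes (0%), and 5 of 9 had an unadjusted p under 0.05, beside 1089 of 22180 genes. The intervals were wide: for Tap1 the 95% confidence interval of the difference ran from 0.24 to 1.44, and for Psmb10 from -0.14 to 0.45.

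In Combination against TMZ the 9 means were higher by a median of 0.18, from 0.04 for Psmb10 and Tapbp to 0.46 ± 0.27 for Tap1. Tap1, Tap2 and H2-T23 had every Combination array above every TMZ array, 3 of 9 beside 3.81% of all genes. limma called 0 of 9, beside 0 of all genes (0%), and 0 of 9 had an unadjusted p under 0.05, beside 930 of 22180 genes. Without TMZ replicate 2 the median was 0.05, and the sign turned for H2-K1, Psmb9 and Tapbp. In TMZ against Anti-PD-1 the 9 means were higher by a median of 0.33, from 0.12 for Psmb10 to 0.65 ± 0.38 for H2-K1. limma called 0 of 9, beside 0 of all genes (0%), and 0 of 9 had an unadjusted p under 0.05, beside 1000 of 22180 genes. These 3 comparisons share arrays with each other.

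The interaction asks whether the agents together gave the sum of their single differences. It subtracts the difference of Anti-PD-1 from Control from the difference of Combination from TMZ. It was above 0 for all 9 genes, with a median of 1.18 beside -0.02 over all genes. Combination masses thus lay less far below Control than the sum of the 2 single agents. The second Tapbp probe set gave an interaction of -0.017, beside 0.57 for the one used. Tap1 had 1.82 ± 0.39 (limma, adjusted p = 0.2), Psmb8 1.67 ± 0.39 (adjusted p = 0.229) and H2-T23 1.28 ± 0.32 (adjusted p = 0.269), and the smallest was 0.52 ± 0.19 for Psmb10 (adjusted p = 0.444). limma called 0 of 9, beside 1 of all genes (0.00451%), and 9 of 9 had an unadjusted p under 0.05, beside 1978 of 22180 genes. The Control arrays enter this sum, and without Control replicate 3 limma called 6 of the 9 genes and 198 of all genes, with a median of 1.55.

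The 9 genes varied together from mass to mass. Over the 12 arrays, the 36 pairs had Pearson r from 0.798 (Psmb10 and B2m) to 0.979 (Tap1 and Psmb8), with a median of 0.912. With the group means subtracted, r ran from 0.644 to 0.968 with a median of 0.884. Controls 1 and 2 were the arrays farthest from the median of the 9 genes. Over the 10 arrays without them, r ran from 0.626 (Tap2 and Psmb9) to 0.95 (Tapbp and H2-K1), with a median of 0.818. Psmb8 followed the mean of the other 8 genes most closely, at r = 0.976, and Psmb10 least, at 0.908. These values describe arrays that share RNA extracts between the 2 genes of each pair.

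**Figure D3:**
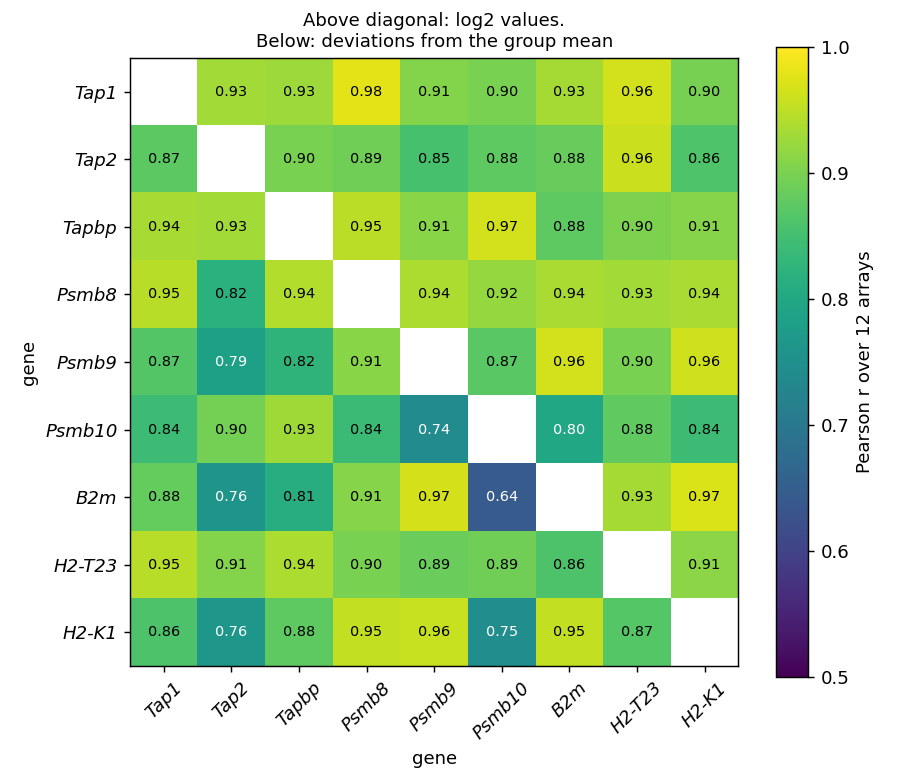
Rows and columns are the 9 genes, and each square is Pearson r over the 12 arrays, for log2 values above the diagonal and for deviations from the group mean below it. The lowest square is that of Psmb10 and B2m on both sides of the diagonal, at 0.798 above and 0.644 below.

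Outside the pathway, the genes most like the mean of the 9 were Stat2 (r = 0.982), Sting1 (0.979), Lgals3bp (0.976), Fcer1g (0.975), and Rtp4, Irf9, Irgm1 and Rnf213 (0.972 each), over 12 arrays. Leaving out the 9 genes, predicted genes and olfactory receptor genes, the median r was -0.0304, and 0.786% of genes reached 0.9. Without Controls 1 and 2 the r of these 8 genes ran from 0.913 to 0.964. Stat2 and Irf9 encode parts of the factor that type I interferon activates, and Sting1 a sensor adaptor of cytosolic DNA signalling. Stat2 and Irf9 are also counted in the list of class I regulators below. Irgm1 was lower by 1.65 in Anti-PD-1, 1.18 in TMZ and 0.78 in Combination than in Control, on the log2 scale, and the treated mean had an adjusted p of 0.0553.

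The other genes of the pathway were read from lists made with earlier results known, and limma called 0 of them in any comparison. Of the peptide loading complex and its folding helpers, 10 of 10 were lower in the treated mean, with a median of -0.12 and 4 at an unadjusted p under 0.05. The smallest p values were those of Bcap31, a sorting protein of the endoplasmic reticulum, at -0.20 ± 0.06 (adjusted p = 0.154), and P4hb, a disulfide isomerase, at -0.23 ± 0.07 (adjusted p = 0.169). The 3 standard catalytic proteasome subunits had a median of -0.08 and the 10 measured of 11 other 20S subunits -0.06, with Psmb3 at -0.19 ± 0.06 and Psma7 at -0.18 ± 0.08 (adjusted p = 0.166 and 0.3). The 5 activators and assembly factors had a median of 0.06, with 3 higher and 2 lower. Of these Psme1, which encodes a subunit of the interferon-induced PA28 cap, differed by -0.38 ± 0.10 (adjusted p = 0.101) and Psme4, which encodes another proteasome activator, by 0.08 ± 0.05 (adjusted p = 0.416). In the same comparison Psmb8 had -0.999, Psmb9 -0.79 and Psmb10 -0.40, so Psme1 was close to Psmb10 in size.

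Other class I heavy chains were measured for 9 of 15, with 8 lower in the treated mean and a median of -0.17. H2-T24 differed by -0.31 ± 0.10 (limma, adjusted p = 0.18) and H2-Q4 by -0.50 ± 0.19 (adjusted p = 0.232). The 7 class I-like molecules had a median of 0.01. Of these, Cd1d2, which presents lipids, differed by 0.14 ± 0.08 and Hfe, which regulates iron uptake, by -0.12 ± 0.07 (adjusted p = 0.452 and 0.469). Class I-like genes therefore had no common direction, with 3 lower and 4 higher.

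Regulators of class I genes were measured for 14 of 16. Their median was -0.31 in the treated mean, with 10 lower and 8 at an unadjusted p under 0.05. Ciita, the transactivator of class II genes, differed by -0.26 ± 0.06 (limma, adjusted p = 0.0768). Irf7, a factor of the type I interferon response, differed by -1.09 ± 0.26 (adjusted p = 0.0831). Nlrc5, the transactivator of class I genes and named here outside the rule for naming, differed by -0.50 ± 0.22 (adjusted p = 0.297). Over the 12 arrays the mean of this list followed the mean of the 9 genes at r = 0.98 (Spearman rho 0.937), and at r = 0.939 without Controls 1 and 2.

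A list of interferons, their receptors and receptor kinases differed little. It held Ifng, Ifnb1, Ifnar1, Ifnar2, Ifngr1, Ifngr2 and the kinases Jak1, Jak2 and Tyk2. The median of these 9 genes was -0.05 in the treated mean. Ifnar2 had -0.15 ± 0.05 and Ifngr2 -0.10 ± 0.05, both receptor subunits (limma, adjusted p = 0.197 and 0.392). The list made for receptors that read class I was measured for 7 of 12, with 5 lower and a median of -0.14. Klrk1, Klrb1c and Lilrb4a are among the 7 but are not established receptors of the class I molecules named here. Within the list Klrk1, which encodes NKG2D, differed by -0.38 ± 0.14 and Cd8b1, a chain of CD8, by -0.20 ± 0.09 (limma, adjusted p = 0.212 and 0.315).

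Markers of several cell types moved with the 9 genes, and their part in the differences was not tested. The proliferating glioma cell list stood at -0.21 to -0.13 in Combination, -0.36 to 0.03 in TMZ, -0.45 to -0.23 in Anti-PD-1 and 0.30 to 0.93 in Control, as the mean log2 deviation from each gene's own mean. 9 of 9 of its genes were lower in the treated mean, 8 of them past the limma threshold, and Control 3 was the lowest Control at 0.30. The monocyte and macrophage list stood at -0.08 to 0.16 in Combination, -0.13 to 0.16 in TMZ, -0.25 to -0.06 in Anti-PD-1 and -0.06 to 0.28 in Control. Of its 12 genes 11 were lower in the treated mean, 1 of them past the threshold. The microglia list stood at 0.01 to 0.09 in Combination, -0.25 to 0.07 in TMZ, -0.10 to 0.02 in Anti-PD-1 and 0.00 to 0.19 in Control, with 11 of 11 lower and 1 past the threshold.

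Neuron markers moved the other way, with 14 of 15 higher in the treated mean and 0 past the threshold. T cell markers were measured for 10 of 14, with 7 lower and 0 past the threshold, a median of -0.08, and a list mean of -0.06 to 0.00 in Combination, -0.16 to 0.03 in TMZ, -0.07 to 0.07 in Anti-PD-1 and -0.01 to 0.16 in Control. Of the other lists, limma called 0 genes of the natural killer, B cell, dendritic, neutrophil, oligodendrocyte, astrocyte and endothelium lists in the treated mean, where 10 of 10 endothelium markers were higher, 5 of 9 natural killer markers lower and 5 of 10 astrocyte markers lower. RMA signals have no true zero, so no marker can be called absent. The natural killer, B cell and neutrophil lists were dim, with mean log2 levels of 3.91, 4.01 and 3.56, beside a median of 5.73 over all genes. The T cell list averaged 5.13, with Thy1 the brightest at 9.76, and the monocyte and macrophage list 5.14. Values of these dim lists may hold little signal of their cell types. The oligodendrocyte, B cell, neutrophil and endothelium lists had r of 0.246, -0.223, -0.238 and -0.401 with the mean of the 9 genes. Over the 12 arrays, r with the mean of the 9 genes was 0.889 for monocytes and macrophages, 0.879 for proliferating glioma cells, 0.815 for microglia, 0.742 for T cells, 0.72 for dendritic cells, 0.711 for natural killer cells, 0.681 for astrocytes and -0.845 for neurons. Without Controls 1 and 2 these were, in the same order, 0.778, 0.553, 0.685, 0.312, 0.299, 0.367, 0.798 and -0.504, so that the astrocyte list then had the highest r of the cell type lists. With the neuron list as a covariate the median difference of the 9 genes in Anti-PD-1 against Control was -0.40, and with the microglia list -0.46, beside -0.94 without either. Signs turned in the comparisons with Control for Tap2 and H2-T23 in Combination, with the neuron covariate and without Control replicate 2, and for B2m, H2-K1 and Psmb9 in TMZ, with the microglia covariate.

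**Figure D4:**
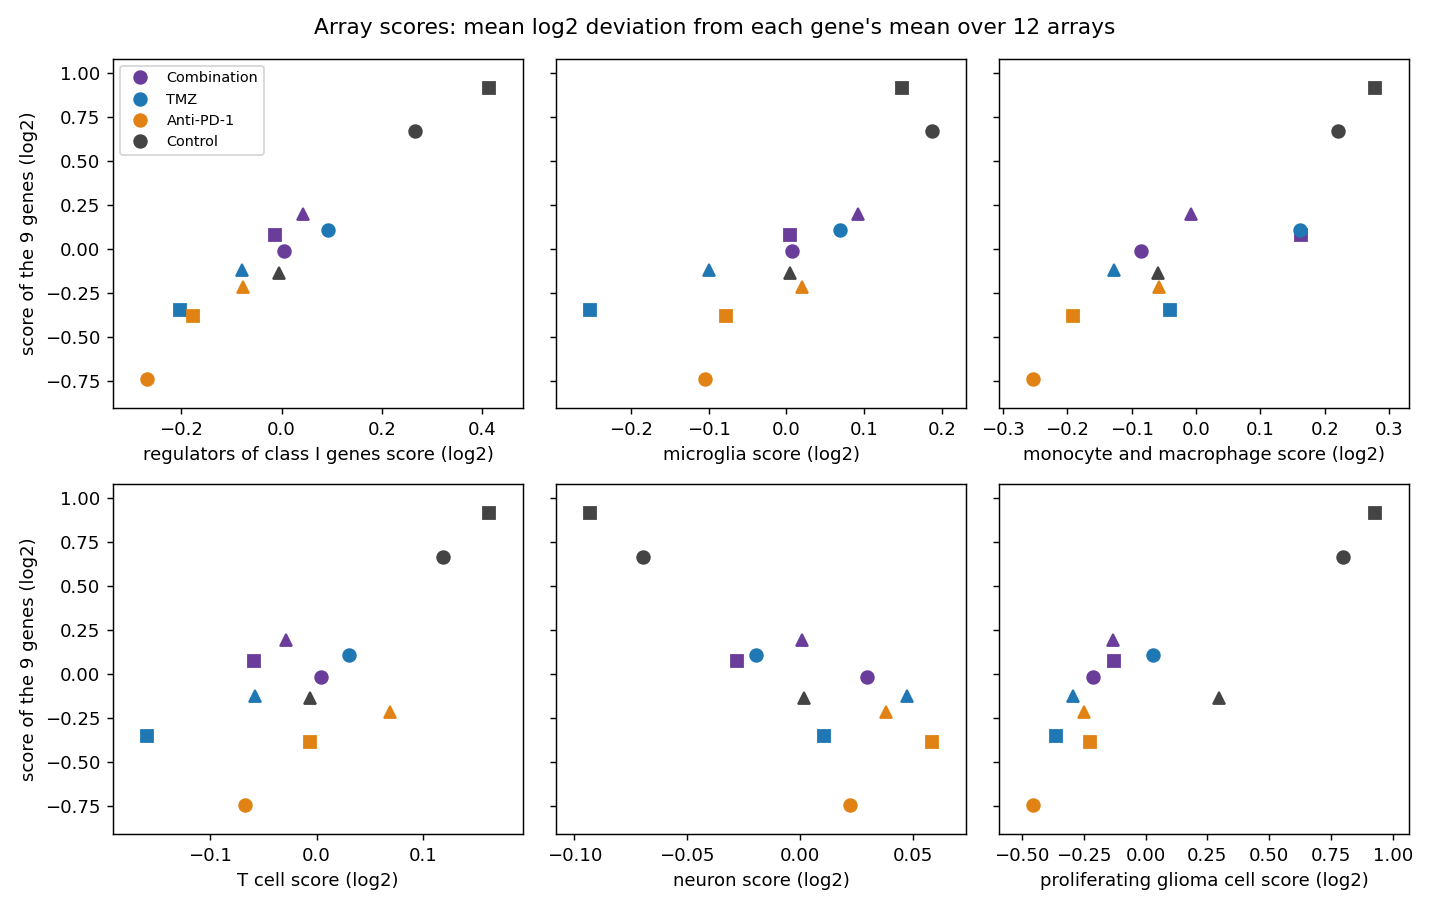
Each point is 1 array, with the mean log2 deviation of the 9 genes on the vertical axis and that of another list on the horizontal axis. Colours are the groups and circles, squares and triangles replicates 1, 2 and 3. Controls 1 and 2 lie at the top of each panel, at 0.669 and 0.914, and the regulators of class I genes follow the 9 genes most closely, at r = 0.98.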

How the data were processed

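Total RNA of 12 GL261 masses was measured on Affymetrix whole-transcript arrays, with 3 arrays in each of 4 groups taken from the labels. The deposited values are log2 signals that, per the submitters' processing notes, were made with RMA in the Affymetrix Expression Console; its version and the genome build are not given in the sources used here. The annotation named 1 symbol for 23521 of the 41345 probe sets, several for 1814 and none for 16010. The probe set with the highest mean was taken for each gene, which gave 22180 genes with no filter. The members, the gene lists and the tests were chosen with earlier results of these data known.

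Tests used limma 3.58.1 under R 4.3.3 (a mean per group over all 12 arrays, 8 residual degrees of freedom, eBayes, two-sided p values). Benjamini-Hochberg adjustment ran over all genes of a comparison, with a threshold of 0.05. SE are from limma and SD are between arrays. A list's value in an array is the mean of log2 values less each gene's mean. Cell type lists were given by counts. From each pathway list the genes past the threshold in any comparison were named, and otherwise the 2 with the smallest p in the treated mean against Control, and the 8 genes most like the members were named by r, leaving out predicted genes. The fit was tested on simulated data. Alternatives were another variance prior, a filter at log2 5, all probe sets, the mean of probe sets, a common median, only the groups compared, the replicate number as a block, 2 covariates and leaving out each of the 12 arrays.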

Additional observations from a re-analysis of the deposited data

How the results depend on the processing

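The direction of each member's difference in Anti-PD-1 against Control, in the treated mean against Control and in the interaction held under the alternatives that can change it. These were the mean of probe sets, the common median, the 2 covariates and leaving out each array. The other alternatives leave a difference as it is and alter only its spread or the genes tested, so they could not turn a direction. The sign turned in 23 other values: 14 in Combination against TMZ, 4 in Combination and 3 in TMZ against Control, 1 in Combination against Anti-PD-1 and 1 in TMZ against Anti-PD-1. With a variance trend limma called 5 members in Anti-PD-1 against Control and 3 in the treated mean, and with genes under log2 5 left out it called 2 and 2, against 0 and 0; fewer genes were tested under the filter, and the cause was not tested for the trend. All genes called were 381 and 677 with the trend, 148 and 352 with the filter, and 2 and 40 over all probe sets, against 65 and 197. TMZ against Control gave 113 with the trend, 14 with the filter, 1 over all probe sets and 4 with the block, against 22. With only the groups compared limma called 0 genes in the comparisons with Control. The median difference of the members with the neuron covariate was -0.077 in TMZ, -0.40 in Anti-PD-1 and -0.20 in the treated mean, each against Control, and 0.50 in the interaction. With the microglia covariate it was -0.090, -0.46, -0.21 and 0.265. In Combination against Control it was -0.091 with the neuron and -0.23 with the microglia covariate, against -0.34, and in Combination against TMZ it turned to -0.076 with the microglia covariate, against 0.18.

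Leaving out 1 array at a time, limma called 0 to 6 members in TMZ, 0 to 9 in Anti-PD-1, 0 to 3 in Combination and 0 to 8 in the treated mean, each against Control, and 0 to 6 in the interaction; every upper value was without Control replicate 3. Without Control replicate 1 or 2, or without any 1 of the Anti-PD-1 arrays, it called 1 gene of all in Anti-PD-1 against Control, against 65. In the same comparison it called 8 or 9 genes without 1 Combination array and 13 to 50 without 1 TMZ array. Medians ran from -0.85 to -0.29 in TMZ, -1.24 to -0.69 in Anti-PD-1, -0.58 to -0.19 in Combination, -0.87 to -0.34 in the treated mean and 0.86 to 1.55 in the interaction. They ran from 0.05 to 0.30 in Combination against TMZ, 0.41 to 0.69 in Combination against Anti-PD-1 and 0.18 (without Anti-PD-1 replicate 1) to 0.50 in TMZ against Anti-PD-1. With the group means subtracted, 18 same-numbered pairs of arrays had r of -0.162 to 0.156 over all genes, 1 of them over 0.1. Pairs of unlike number ran from -0.268 to 0.201. These values gave no sign that the replicate numbers pair the arrays, and cannot exclude it. With the replicate number as a block limma called 0 members in each comparison, and 20 genes in Anti-PD-1 against Control.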
